A study of Mus musculus with 6 samples.

Results

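The metallothioneins *Mt1*, *Mt2* and *Mt3* were followed in single-cell RNA-Seq of striatal cells enriched for astrocytes. These 3 genes (ENSMUSG00000031765, ENSMUSG00000031762 and ENSMUSG00000031760) were taken by name from a count table of 32285 genes, and all 3 were detected in every library. The cells came from wild-type male C57BL/6 mice at postnatal day 3 (P3), when striatal astrocytes are immature, and at 3 months (3m), with 3 libraries per age and no treatment. Astrocytes were enriched through their surface antigen ACSA2, which magnetic beads bind, from tissue pooled over several animals per preparation, with the subventricular zone left out. The comparison of the ages asks how astrocytes change as they mature. Nothing in the labels ties a library to single animals, so p-values measure the spread between preparations.

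Metallothioneins are small cysteine-rich proteins that bind zinc and copper in the cytoplasm. *Mt1* and *Mt2* are made in many tissues and are induced by metals through the zinc-sensing factor MTF1, and by glucocorticoids and oxidative stress. *Mt3* is the brain form, known as a growth inhibitory factor, and is not induced by metals in the way of the other members. *Mt4* is a gene of stratified epithelia. In the brain, astrocytes are a main source of *Mt1* and *Mt2*.

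The genes lie side by side on the plus strand of chromosome 8 (GRCm38, GENCODE M21), where the span from the start of *Mt4* to the end of *Mt1* covers 43131 bases. *Mt3* occupies chr8:94152607-94154146, *Mt2* chr8:94172664-94173568 and *Mt1* chr8:94179082-94180327, and the longest transcript model of each has 3 exons. An antisense gene, *Gm45774*, overlaps *Mt2* on the minus strand. The kit marks strand, and *Gm45774* had 114 UMIs in all barcodes against 46754 of *Mt2*. *Mt4* had 1 UMI in all 16690 barcodes and is not described further. The RefSeq sequences before the start sites are shown because the induction of *Mt1* and *Mt2* by metals runs through the metal response element (MRE), whose core was searched on both strands as TGCACNC or TGCGCNC and is set in capitals. The windows are chr8:94178839-94179081 for *Mt1*, chr8:94172368-94172617 for *Mt2* and chr8:94152357-94152606 for *Mt3* (GRCm38.p6, plus strand). Those of *Mt2* and *Mt3* end at the last base before the RefSeq start, which for *Mt2* lies upstream of the GENCODE start. The *Mt1* window was cut at the last base before the GENCODE start.
Mt1: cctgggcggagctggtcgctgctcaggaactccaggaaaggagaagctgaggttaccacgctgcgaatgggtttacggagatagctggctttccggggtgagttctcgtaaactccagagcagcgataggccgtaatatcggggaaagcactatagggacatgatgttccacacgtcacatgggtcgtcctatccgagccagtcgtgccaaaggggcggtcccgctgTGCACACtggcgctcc
Mt2: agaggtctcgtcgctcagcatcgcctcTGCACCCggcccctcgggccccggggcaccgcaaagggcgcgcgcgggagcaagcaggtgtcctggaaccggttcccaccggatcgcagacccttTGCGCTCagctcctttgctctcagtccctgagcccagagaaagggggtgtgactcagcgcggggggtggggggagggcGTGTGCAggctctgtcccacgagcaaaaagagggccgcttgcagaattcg
Mt3: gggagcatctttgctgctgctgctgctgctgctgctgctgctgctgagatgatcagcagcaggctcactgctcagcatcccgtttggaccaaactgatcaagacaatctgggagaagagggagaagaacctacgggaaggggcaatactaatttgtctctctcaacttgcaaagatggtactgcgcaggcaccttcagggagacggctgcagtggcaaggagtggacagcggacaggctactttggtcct
The *Mt2* window held 3 cores, 2 of them on the plus strand, the *Mt1* window held 1, which starts 16 bases before its end, and the *Mt3* window held 0. Of 32851 RefSeq promoter windows of 250 bases, 21.4% held at least 1 core and 1.26% at least 3. A core of the antioxidant response element, searched as TGACNNNGC, was found once in the *Mt2* window and not in the windows of *Mt1* and *Mt3*, and 10.2% of all windows held one. GENCODE also lists transcripts that start downstream of the windows shown, at base 94179211 for *Mt1*, 94172860 for *Mt2* and 94152746 for *Mt3*. Bases just before those starts were not searched, and neither were those between the *Mt2* window and its GENCODE start. The *Mt1* window is 243 bases long, where the windows counted above have 250.

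The table held 16690 barcodes, of which 14373 passed the study's filter and carried its cluster names, and 9992 of these were astroglial (8874 at P3 and 1118 at 3m). Library totals ran from 32193875 to 37795021 UMIs at P3 and from 5471573 to 10522151 at 3m. The median astroglial cell had 5456 to 9665 UMIs at P3 and 2977 to 5326 at 3m. Replicate 1 of each age stood apart from the other libraries: it held 1156 of the 1211 cells of sub-cluster 1 at P3 and 182 of the 184 cells of sub-cluster 14 at 3m. In all, 37 barcode sequences occurred in 2 libraries. The 9 astrocyte markers summed to 5204 to 6281 CPM (the UMIs of a gene divided by the total UMIs of the same sum, on a 1e6 scale) in P3 astroglia and to 15123 to 16072 CPM at 3m. The 10 oligodendrocyte markers summed to 8.92 to 9.23 CPM in P3 astroglia and to 748 to 1957 CPM at 3m, and their part in the results below was not tested.

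*Mt1* and *Mt2* rose between P3 and 3m in astroglia, and *Mt3* was high at both ages. Levels are CPM of the astroglial sum of a library. Because the 3′ kit counts 1 end of each transcript, they carry no length term and can be set side by side between genes. *Mt1* stood at 1483, 2189 and 1853 CPM in P3 replicates 1 to 3 and at 10247, 12299 and 13331 CPM in the 3m replicates. All 3m libraries lay above all P3 libraries. The log2FC of *Mt1* (3m over P3) was 2.88 ± 0.30 (SE, padj = 6.16e-06, edgeR's quasi-likelihood test). *Mt2* stood at 299, 469 and 514 CPM in the P3 replicates and at 1371, 1274 and 1237 CPM at 3m, again with no overlap. Its log2FC was 1.78 ± 0.23 (padj = 3.91e-05, edgeR).

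*Mt3* stood at 4154, 7489 and 8193 CPM at P3 and at 6656, 9899 and 10217 CPM at 3m. The ages overlapped, and replicate 1 was the lowest library of both. Its log2FC of 0.62 ± 0.33 did not pass the test (padj = 0.133, edgeR). A gene was called at padj of at most 0.05 and an absolute log2FC of at least 1, and 32.1% of the 13530 genes tested in astroglia met this, so that 2 calls among 3 members stand against a high background. Levels of the ages did not overlap in 59% of these genes. By size, *Mt1* ranked 441 and *Mt2* ranked 1075 among the log2FC of all genes tested, whose median was -0.04, and *Mt3* ranked 3498. Without replicate 1 of both ages the log2FC were 2.85 for *Mt1*, 1.55 for *Mt2* and 0.55 for *Mt3*. Scaling by library totals in place of TMM moved the median of all genes by -0.19 and gave 2.70, 1.60 and 0.43, and the split of calls from 49.3% to 38.6% higher at 3m.

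**Figure D1:**
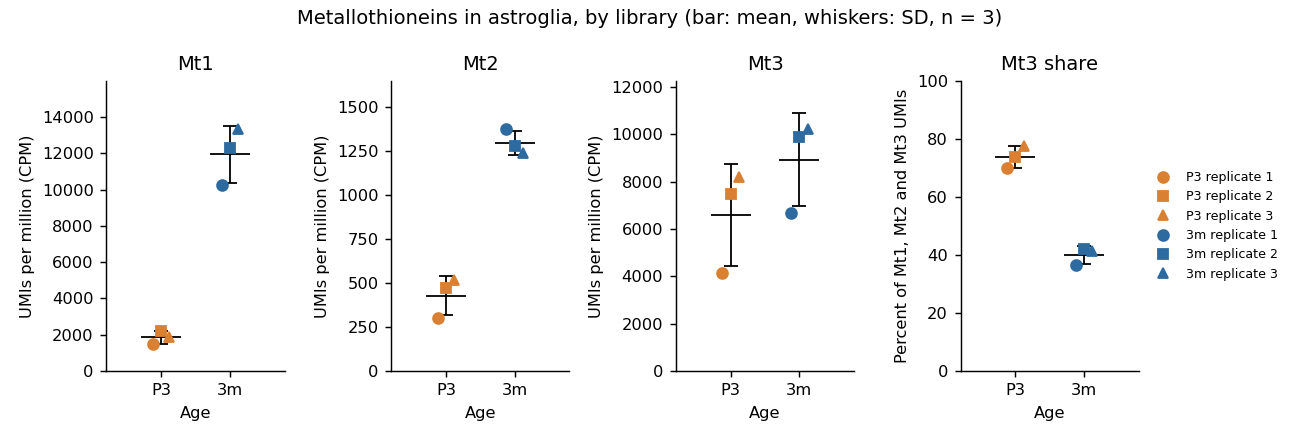
Levels of *Mt1*, *Mt2* and *Mt3* in CPM, and the share of *Mt3* among the UMIs of the 3 genes in percent, in the astroglial sum of each library. Points are libraries, bars are means and whiskers SD (n = 3). The ages do not overlap for *Mt1*, *Mt2* and the share of *Mt3*, and overlap for *Mt3*.

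In the astroglial sums, *Mt1* and *Mt3* changed places between the ages. At P3, *Mt3* was the gene with rank 6 to 11 of all 32285 by UMIs in the astroglial sums, *Mt1* had rank 47 to 85 and *Mt2* rank 291 to 517. At 3m, *Mt1* had rank 5 to 8, *Mt3* rank 8 to 12 and *Mt2* rank 54 to 69. The 3 genes together held 0.594% to 1.06% of all astroglial UMIs at P3 and 1.83% to 2.48% at 3m. *Mt3* contributed 70.0% to 77.6% of the family's UMIs at P3 (mean 73.8 ± 3.80%, SD, n = 3) and 36.4% to 42.2% at 3m (39.9 ± 3.08%). The difference of -33.9 percentage points had an exact permutation p of 0.1 (two-sided), the smallest that 3 against 3 libraries allow. This share does not depend on scaling between libraries. Within the inducible pair, *Mt2* gave 16.8% to 21.7% of the *Mt1* and *Mt2* UMIs at P3 and 8.49% to 11.8% at 3m, a difference of -8.82 points (exact permutation p = 0.1). *Mt1* and *Mt2* thus both rose, and the share of *Mt2* was lower in each 3m library than in each P3 library.

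Nearly all astroglial cells held *Mt3* at both ages, and the share of cells with a UMI differed most between the ages for *Mt2*. Cells were thinned to 2000 UMIs each, which left out 48, 118 and 947 shallower cells of P3 replicates 1 to 3 and 16, 141 and 55 of the 3m replicates. At this depth a UMI of *Mt1* was found in 87.2%, 92.2% and 89.3% of P3 cells and in every cell of 3m replicate 1 and in 99.8% and 99.7% of the cells of 3m replicates 2 and 3. For *Mt2* the shares were 40.8%, 53.9% and 55.2% at P3 and 85.3%, 85.4% and 83.9% at 3m. *Mt3* was found in 98.8% to 98.9% of P3 cells, in every cell of 3m replicate 1 and in 99.3% and 99.7% of the cells of 3m replicates 2 and 3. Exact permutation p was 0.1 for each gene, the floor of the design. Unthinned, the mean shares were 95.7 ± 3.95% at P3 and 99.4 ± 0.64% at 3m for *Mt1* (SD, n = 3), 78.7 ± 6.36% and 91.6 ± 2.92% for *Mt2*, and 99.6 ± 0.31% and 99.6 ± 0.38% for *Mt3*, where the ages overlapped. In P3 endothelial cells of replicates 1 and 2, which had median depths of 25937 and 20982 UMIs, the thinned shares were 4.49% and 8.65% for *Mt1*, 1.12% and 1.62% for *Mt2*, and 5.62% and 10.3% for *Mt3*. In P3 replicate 3, with a median endothelial depth of 1718 UMIs, the shares were 22.8%, 6.60% and 34.3% for *Mt1*, *Mt2* and *Mt3*. At 3m none of the types with at least 10 thinned cells in all 3 libraries came as low for *Mt1*. The thinned shares were 59.5% to 76.8% in oligodendrocytes, 61.5% to 81.0% in endothelial cells and 31.3% to 61.1% in microglia. Median depths were 3250 to 8484 UMIs over these libraries. Pericytes and oligodendrocyte precursors of 3m had fewer cells and were not measured. Oligodendrocytes had *Mt2* in 4.43% to 9.42% of cells and *Mt3* in up to 41.6%. The astroglial shares of all 3 genes lay above those of these types at the same age.

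The spread over cells followed the level. At 2000 UMIs a cell, the median P3 astroglial cell had 2 to 4 UMIs of *Mt1* and 8 to 17 of *Mt3*, by library, and the median 3m cell had 19 to 26 of *Mt1* and 13 to 19.5 of *Mt3*. The tenth percentile of *Mt1* at 3m, 10.6 to 13 UMIs, lay above the ninetieth percentile at P3, 6 to 10 UMIs. The distributions of *Mt1* over the cells of each age thus overlapped little, and those of *Mt3* overlapped widely. Across cells within a library, *Mt1* and *Mt3* had a Pearson r of 0.31 to 0.47 at P3 (1937 to 2985 cells) and 0.46 to 0.50 at 3m (197 to 405 cells), where cells share 1 preparation and 1 depth. Within sub-cluster 0, the largest of P3, r was 0.05 to 0.21 (100 to 895 cells). Within sub-cluster 7 of 3m it was 0.55 and 0.50 in replicates 2 and 3 (220 and 267 cells).

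The 17 astroglial sub-clusters of the study differed in all 3 genes. In the study, 3, 4, 5, 10, 12 and 15 at P3 and 13 and 16 at 3m grouped with reference astrocytes from outside the telencephalon, to which the striatum belongs, so they may come from adjoining regions. They are called non-telencephalic or other astroglia here, and 0, 1, 2, 9 and 11 at P3 and 7 and 14 at 3m, on or near the main lineage, telencephalic. Sub-clusters 6 and 8 held cycling cells. Clusters were drawn from the expression of the same cells, so differences between single sub-clusters are described with no test, for sums of at least 10 cells. At P3, *Mt1* was highest in sub-cluster 15, with 6338, 6676 and 6279 CPM in replicates 1 to 3. This sub-cluster of 145 cells holds 93 of the 96 cells of cluster 19, which was led by genes of multiciliated cells such as *Deup1*, *Mcidas* and *Myb*, and a further 52 cells of cluster 1. Next came sub-cluster 3 (2859 to 4009 CPM) and sub-cluster 5 (2452 to 2933 CPM), whose ranges overlapped and whose cells were mostly of cluster 1 (771 of 781 and 628 of 734 cells). The leading genes of cluster 1 include *Adamts18* and *Crym* and the cilium genes *Pifo* and *Dnajb13*. The lowest means were in sub-cluster 6 (973 to 1277 CPM) and in sub-cluster 10 (622 to 1229 CPM), which also overlapped. Between these ends, the ranges of neighbours in the order of *Mt1* overlapped throughout. The same sub-clusters 15, 3 and 5 led for *Mt2*, with means of 1627 ± 151, 822 ± 127 and 652 ± 126 CPM (SD, n = 3).

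*Mt3* was also highest in sub-clusters 15, 3 and 5, whose ranges overlapped. Sub-cluster 3 had 8088, 15436 and 14213 CPM in replicates 1 to 3, and sub-cluster 15 had 8631, 13247 and 16182 CPM. The cycling sub-clusters were lowest, with 2466 to 3548 CPM in 6 and 2516 to 4381 CPM in 8. Replicate 1 had the lowest *Mt3* level of the P3 libraries in 10 of 10 sub-clusters with all 3 libraries, the lowest *Mt2* level in 9 and the lowest *Mt1* level in 5. The lower level of *Mt3* in that library was therefore spread over the sub-clusters. Sub-cluster 10 (332 cells) had a family makeup of its own: *Mt3* held 85.7%, 85.7% and 85.5% of family UMIs in replicates 1 to 3, and in the other P3 sub-clusters the share ranged from 52.5% to 83.2%. Of its cells, 324 were of cluster 11, whose leading genes include *Cpne4*, *Cntnap2* and *Fezf2*. The lowest shares, 52.5% to 66.8%, were in sub-cluster 15.

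**Figure D2:**
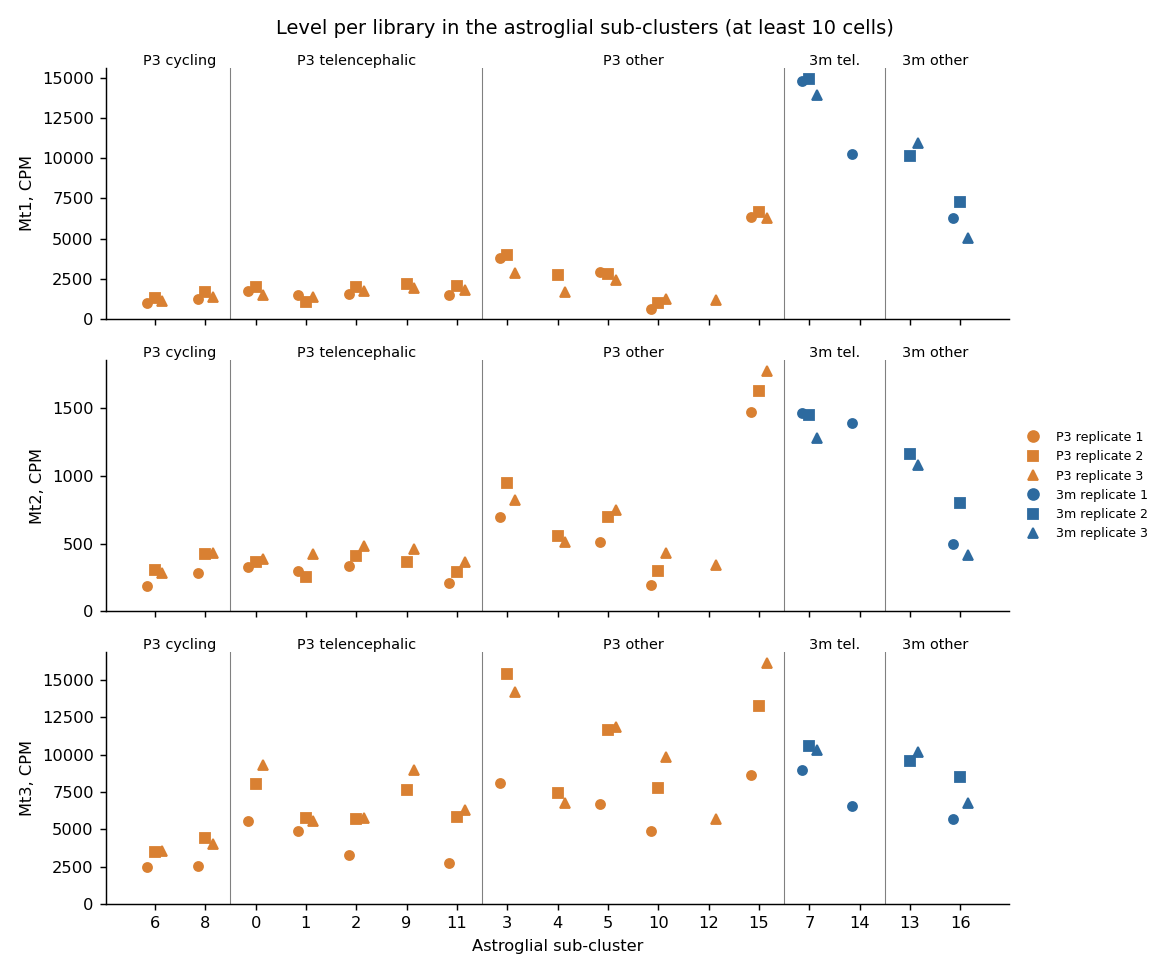
Level of each gene in CPM (linear axes) in the 17 astroglial sub-clusters, grouped by age and by the telencephalic, other and cycling groups as used here. Points are libraries with at least 10 cells. Sub-clusters 15, 3 and 5 are the highest of P3 for all 3 genes. At 3m, sub-cluster 7 lies above 13 and 16 for *Mt1* and *Mt2*.

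At 3m the order of the region sums was the other way round for *Mt1* and *Mt2*. *Mt1* stood at 14827, 14915 and 13949 CPM in the telencephalic sub-cluster 7 and at 10236 CPM in sub-cluster 14, which only replicate 1 filled. In the other regions it stood at 10132 and 10935 CPM in sub-cluster 13 (replicates 2 and 3) and at 6268, 7271 and 5039 CPM in sub-cluster 16. With the sub-clusters of each region summed per library, telencephalic astroglia had 1513, 2007 and 1656 CPM of *Mt1* at P3 and the others 3055, 3644 and 2645 CPM. At 3m the telencephalic sums had 10362, 14852 and 13937 CPM and the others 8205, 9468 and 10062 CPM. The log2 ratio of telencephalic over other astroglia was thus -0.85 ± 0.17 (SD, n = 3) at P3 and 0.49 ± 0.16 at 3m, negative in 3 of 3 P3 libraries and positive in 3 of 3 at 3m. In 3m replicate 1 the other sum held 17 cells, 14 of them of sub-cluster 16. By maturation genes, the study found this sub-cluster more like early postnatal astrocytes. The range of sub-cluster 13 took in the value of the telencephalic sub-cluster 14. Oligodendrocyte markers summed to 239 to 395 CPM in the telencephalic sums at 3m and to 23883, 3688 and 2991 CPM in the others, against 6.67 to 9.86 CPM in both regions at P3. By sub-cluster they stood at 332 to 397 CPM in 7, 891 to 1483 CPM in 13 and 12529 to 35422 CPM in 16, and their part in the difference between the regions was not tested. *Mt2* showed the same turn, from -1.05 ± 0.18 to 0.41 ± 0.03. *Mt3* went from -0.68 ± 0.21 to 0.05 ± 0.18 and was higher in the telencephalic sum in 2 of 3 libraries at 3m. In sub-cluster 16 *Mt3* stood at 5696, 8486 and 6748 CPM, above *Mt1* in replicates 2 and 3 and below it in replicate 1.

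The log2FC with age was larger in the telencephalic sums for *Mt1* and *Mt2*. These sums join sub-clusters drawn from the expression of the same cells. The padj below therefore describe the sums and do not establish a difference between regions. In an interaction test with library as a block, added after these values were seen, the log2FC was larger in telencephalic than in other astroglia by 1.36 ± 0.24 for *Mt1* (padj = 9.61e-05, edgeR) and by 1.47 ± 0.20 for *Mt2* (padj = 2.44e-06, edgeR). For *Mt3* the difference was 0.75 ± 0.25 (padj = 0.0280, edgeR), under the fold threshold. Of the 10181 genes tested, 17.1% were called, and 22.3% had a padj of at most 0.05 at any fold. Fitted apart, the log2FC in telencephalic astroglia were 3.11 for *Mt1*, 2.10 for *Mt2* and 0.68 for *Mt3*, and in the other astroglia 1.86, 0.73 and 0.00. *Mt2* was not called in the latter (padj = 0.0443, edgeR). Without sub-cluster 15 the differences were 1.15, 1.23 and 0.72. The other astroglia of 3m replicates 1 and 3 had 17 and 50 cells, and different sub-clusters make up each region at each age.

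Along the main lineage, *Mt3* had another profile than *Mt1* and *Mt2*. The study ordered cells by a pseudotime drawn from their own expression, which starts among cycling cells, and cut it into 20 bins. In the deposited annotation, 5879 cells carry a bin. Of these, 5080 P3 cells lay in bins 1 to 14 and 786 3m cells in bins 15 to 20, with 9 P3 cells and 4 3m cells on the far side of this limit, so that from bin 15 on pseudotime and age cannot be told apart. In bin 3, *Mt3* stood at 2244, 3196 and 3019 CPM in P3 replicates 1 to 3. It was still at 2567, 3827 and 3857 CPM in bin 11 and reached 4365, 7082 and 6843 CPM in bin 12, where *Mt1* and *Mt2* also stepped up. In bin 14 *Mt3* stood at 5083, 7726 and 9175 CPM, which was 2.27, 2.42 and 3.04 times the level in bin 3. In the 3m bins 16 to 19 it lay between 6509 and 11616 CPM, overlapping the range of P3 bins 13 and 14 (5083 to 9175 CPM).

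*Mt1* differed less between the P3 bins. It stood at 1047, 1211 and 966 CPM in bin 3 and at 1091, 1602 and 1264 CPM in bin 11. The highest level of each library was in bin 12 (1868, 2330 and 1990 CPM), and bin 14 held 1446, 1716 and 1357 CPM. In the 3m bins 16 to 19 *Mt1* lay between 9762 and 16480 CPM, above all P3 bins. *Mt2* ranged from 124 to 567 CPM over the P3 bins, again highest in bin 12 in all 3 libraries, and from 849 to 1706 CPM in the 3m bins 16 to 19. The share of *Mt3* in the family was highest in bin 14 in all 3 P3 libraries, at 75.0%, 79.2% and 84.3% in bin 14, and was 33.8% to 41.5% in the 3m bins 16 to 19. P3 replicate 1 had the lowest *Mt3* level in 12 of 12 bins with all 3 libraries.

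**Figure D3:**
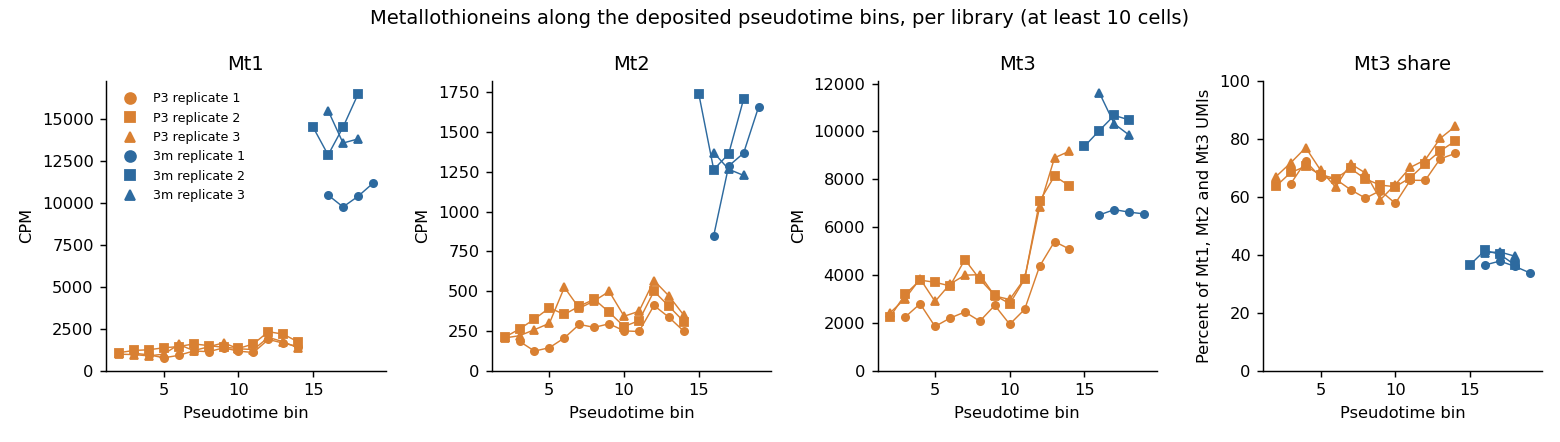
Level of each gene in CPM, and the share of *Mt3* in family UMIs in percent, by pseudotime bin (no unit) and library, for sums of at least 10 cells. All 3 genes step up between bins 11 and 12 within P3. In bins 13 and 14 *Mt3* is higher than in bin 12, and *Mt1* and *Mt2* are lower. *Mt1* and *Mt2* are higher in the 3m bins than in all P3 bins.

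Among annotated cells, most UMIs of the members lay in astroglia at both ages. Barcodes that failed the filter are not counted in these shares. At 3m they held 25173, 7723 and 6119 *Mt1* UMIs in replicates 1 to 3, against 11861, 22680 and 19630 in annotated astroglia. Astroglia held 94.7% to 95.4% of the *Mt1* UMIs of annotated cells at P3 and 77.2% to 85.1% at 3m, where they were 26.6% to 39.0% of the cells. For *Mt3* the shares were 97.0% to 98.3% and 79.2% to 92.0%. At P3, *Mt1* fell in the order astroglia (1483 to 2189 CPM), microglia (933 to 1463), pericytes (225 to 330), oligodendrocyte precursors (194 to 321) and endothelial cluster 7 (42.4 to 58.1). Microglia did not overlap with astroglia or pericytes, and pericytes and precursors overlapped. In neurons, *Mt1* was at 1720, 199 and 154 CPM in replicates 1 to 3, for 14, 23 and 16 cells. *Mt3* did not follow this order: the precursors, at 606 to 913 CPM, and the pericytes, at 317 to 815 CPM, overlapped with the microglia, at 673, 194 and 701 CPM.

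Free RNA of one cell type reaches the droplets of others, so astrocyte markers were measured beside the members in each type. P3 microglia had 62.9% to 66.9% of the astroglial *Mt1* level of the same library, 16.2% to 26.9% of that of *Mt2* and 2.60% to 16.2% of that of *Mt3*, and their summed astrocyte markers were at 2.74% to 16.8%. In P3 microglia *Mt3* was thus in the range of the astrocyte markers, and *Mt1* was above it. At 3m, endothelial cluster 17 had 8.38% to 12.5% of the astroglial *Mt1* level, 15.3% to 18.9% of that of *Mt2* and 1.18% to 4.13% of that of *Mt3*, with astrocyte markers at 1.72% to 6.87%. Its *Mt2* levels, at 210, 241 and 207 CPM, were close together. Endothelial cells of P3 cluster 7 had 4.55, 10.5 and 8.80 CPM of *Mt2*. Their *Mt1* was at 2.65% to 2.97% of the astroglial level, with astrocyte markers at 2.74% to 3.34%. The other P3 endothelial clusters stood higher. Cluster 12 had 781 CPM of *Mt1* and 232 CPM of *Mt2* in 346 cells of P3 replicate 3. In cluster 13 of P3 replicates 1 to 3, *Mt1* stood at 855, 183 and 324 CPM. *Mt2* stood there at 127, 76.1 and 84.8 CPM. Astrocyte markers were at 67.04% of the astroglial level in cluster 12 and at 10.83% to 41.98% in cluster 13. The endothelial class was given by cluster and not tested between the ages, since different clusters hold it at each age and cluster 12 was led by haemoglobin genes.

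Oligodendrocytes, found at 3m, held more *Mt1* than *Mt3*. In cluster 10, *Mt1* stood at 561, 722 and 580 CPM, *Mt2* at 18.7, 21.2 and 22.3 CPM and *Mt3* at 94.0, 242 and 89.2 CPM. *Mt1* in cluster 10 was at 4.35% to 5.87% of the astroglial level, with astrocyte markers at 0.583% to 2.32%. In cluster 2, *Mt1* stood at 2703, 1276 and 1092 CPM in 16, 702 and 510 cells. *Mt2* stood there at 356.9, 69.37 and 46.95 CPM and *Mt3* at 1249, 663.3 and 459.5 CPM. The astrocyte markers of cluster 2 in these libraries were at 36.3%, 5.80% and 4.04% of the astroglial level, so the highest values are those of the 16 cells. *Mt2* gave 2.85% to 3.70% of *Mt1* and *Mt2* UMIs in cluster 10, and 8.49% to 11.8% in the astroglia of the same libraries. Cluster 23, which the study left unidentified and which was led by *Tmem212*, *Ccdc153* and other genes of multiciliated cells, had high levels at both ages. It held 7532 CPM of *Mt1* and 8901 CPM of *Mt3* in 27 cells of P3 replicate 2, and 8744 CPM of *Mt1* and 13541 CPM of *Mt3* in 14 cells of 3m replicate 2.

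**Figure D4:**
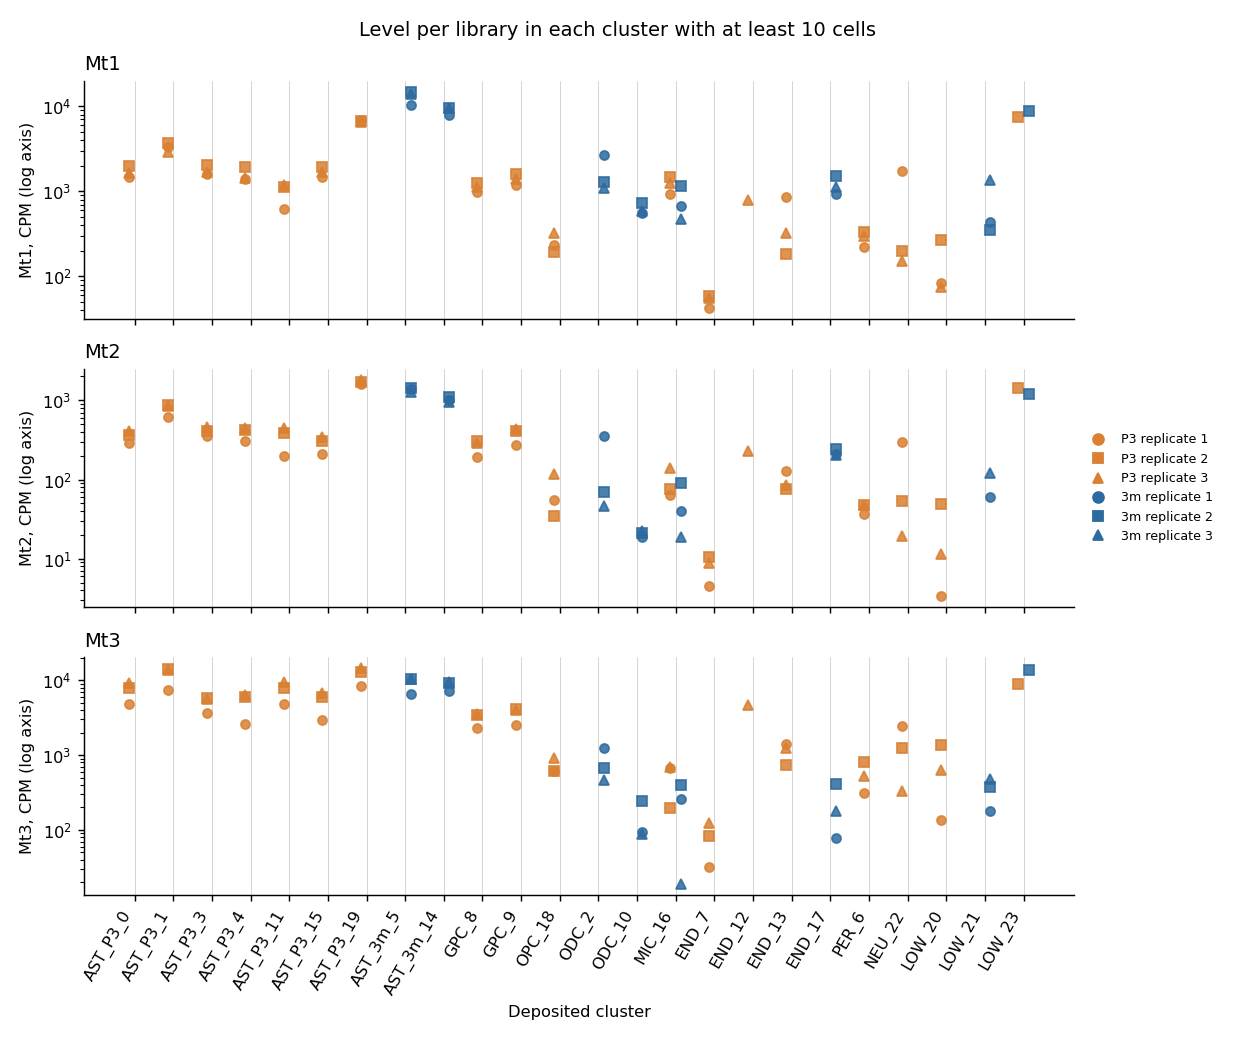
Level of each gene in CPM (log axes) in the 24 clusters of the study, for libraries with at least 10 cells and at least 1 UMI. Orange points are P3 and blue points 3m. Endothelial cluster 17 (3m) lies far above endothelial cluster 7 (P3) for *Mt1* and *Mt2*. The P3 endothelial clusters 12 and 13 lie between them for *Mt1*. For *Mt2*, cluster 13 lies between them and cluster 12 lies within the range of cluster 17.

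In microglia none of the members was called between the ages. The 184 cells gave 34, 44 and 46 per P3 library and 20, 23 and 17 per 3m library. *Mt1* stood at 933, 1463 and 1239 CPM at P3 and at 681, 1171 and 468 CPM at 3m, with overlap, and its log2FC was -0.49 ± 0.30 (padj = 0.333, edgeR). *Mt2*, with 1 to 40 UMIs per library, had a log2FC of -0.64 ± 0.49 (padj = 0.458, edgeR). *Mt3* had 1 to 203 UMIs and a log2FC of -0.94 ± 0.53 (padj = 0.279, edgeR). Of the 2679 genes tested, 10.1% were called, and the ranges of the ages did not overlap in 33.5%. The age effect was larger in astroglia than in microglia by 3.81 ± 0.32 on the log2 scale for *Mt1* (padj = 1.44e-14, edgeR interaction with library as a block) and by 2.81 ± 0.45 for *Mt2* (padj = 4.01e-06, edgeR). For *Mt3* the difference was 1.90 ± 0.45 (padj = 0.00260, edgeR), and it was 1.34 without P3 replicate 1 and 1.32 without 3m replicate 3, neither of them called. In P3 microglia *Mt3* was in the range of the astrocyte markers. At 3m it was at 0.183% to 4.01% of the astroglial level, with astrocyte markers at 0.978% to 4.73%. The part of free astroglial RNA in the *Mt3* contrast was not tested. Of the 9285 genes tested, 7.01% were called. The median of all genes in this test was 0.36 and moved to -0.10 with library totals, which gave 3.34, 2.35 and 1.44 for the members.

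Over the whole preparation, all barcodes summed, the age difference took another shape. Astroglia held 69.7% to 81.4% of the UMIs of annotated cells at P3 and 17.5% to 31.2% at 3m, so that fewer cells of a type and less RNA per cell cannot be told apart in these sums. *Mt1* still rose, from 1080, 1876 and 1354 CPM at P3 to 3852, 5181 and 5336 CPM at 3m (log2FC 1.92 ± 0.29, padj = 5.17e-04, edgeR). *Mt2* stood at 216, 397 and 371 CPM at P3 and at 508, 506 and 481 CPM at 3m. The ages did not overlap for either gene, as was so for 64.7% of all genes tested. The log2FC of *Mt2*, 0.78 ± 0.24, was under the threshold of fold (padj = 0.0214, edgeR). *Mt3* stood at 2936, 6214 and 5877 CPM at P3 and at 2443, 4299 and 4025 CPM at 3m (log2FC -0.30 ± 0.35, padj = 0.491, edgeR). Summing annotated cells only gave 1.66 for *Mt1*, 0.44 for *Mt2* (padj = 0.230, edgeR) and -0.64 for *Mt3*, and the *Mt2* ranges then overlapped (216 to 399 CPM at P3 and 279 to 459 CPM at 3m). Of 15407 genes, 34.5% were called, and 56.5% had a padj of at most 0.05 at any fold. Barcodes that failed the study's filter, 20.9% to 51.5% of each 3m library, had 60.6% to 71.1% of the astroglial *Mt1* level at 3m. Their astrocyte markers were at 68.68% to 71.25% of the astroglial level. The shares of annotated cells thus do not give the astroglial part of all barcodes.

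The genes that move or sense zinc went in both directions. Of 25 genes, the zinc transporters and the metal sensor *Mtf1*, 19 were tested in astroglia, of which 2 rose, 2 fell and 15 were not called, against 15.8% higher and 16.3% lower over all genes tested, with a median log2FC of 0.09 against -0.04 over all genes. *Mtf1* stood at 14.8 to 16.1 CPM at P3 and 5.18 to 11.6 CPM at 3m (log2FC -0.49, padj = 0.143, edgeR). *Slc30a1*, the zinc exporter that MTF1 also induces, stood at 15.1 to 21.9 and 18.1 to 26.0 CPM (log2FC 0.45, padj = 0.0906, edgeR). *Slc39a12*, a zinc importer, rose from 31.9 to 42.5 CPM at P3 to 302 to 383 CPM at 3m (log2FC 3.38 ± 0.18, padj = 1.71e-08, edgeR). *Slc30a6*, a transporter of the Golgi, rose by 1.01 on the log2 scale and was under the threshold in 12 of 20 alternatives. *Slc39a6*, a zinc importer of the cell surface, fell by 1.43, and *Slc39a8* also fell. In non-telencephalic astroglia alone, *Slc30a1* was called (1.54) and *Slc39a6* was not (-0.33).

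For the next lists the same background holds, 15.8% higher and 16.3% lower over all genes tested. Among 15 genes of copper handling, all tested, 4 rose, 2 fell and 9 were not called, with a median log2FC of 0.16. *Steap3*, a metalloreductase, rose from a mean of 9.11 ± 1.70 to 33.1 ± 1.94 CPM (SD, n = 3), and *Sco2*, which delivers copper to cytochrome c oxidase, from 18.5 to 23.2 CPM at P3 to 29.3 to 56.2 CPM at 3m. The other copper genes that rose were *Slc31a2* and *Atp7a*. *Commd1* fell from 131 ± 36.8 to 57.4 ± 6.03 CPM but was not called in 11 of 20 alternatives, and the ferroxidase gene *Cp* also fell. Of 16 genes of the glucocorticoid response, 15 were tested, 6 rose, 2 fell and 7 were not called (median log2FC 0.71). *Sult1a1*, a sulfotransferase, rose from 2.83 ± 1.03 to 23.9 ± 4.78 CPM and *Nr3c2*, the mineralocorticoid receptor, from 3.58 ± 0.52 to 27.8 ± 2.75 CPM. The glucocorticoid receptor *Nr3c1* stood at 89.4 ± 17.7 CPM at P3 and 103 ± 15.4 CPM at 3m (padj = 0.0808, edgeR). The other genes of this list that rose were *Hif3a*, *Zbtb16*, *Per1* and *Tsc22d3*, and the 2 that fell were *Fkbp5* and *Sgk1*. Of 13 antioxidant genes under Nrf2, 12 were tested, with 2 higher, 2 lower and 8 not called (median 0.22). *Slc7a11*, the cystine antiporter, rose from 70.5 ± 12.6 to 173 ± 9.44 CPM, and *Txn1*, thioredoxin, fell from 608 ± 128 to 126 ± 17.2 CPM. *Gsr*, glutathione reductase, fell from 44.6 ± 6.21 to 19.2 ± 3.53 CPM but was not called in 8 of 20 alternatives. *Srxn1*, sulfiredoxin, was the other gene of this list that rose.

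Of 10 heat shock genes, 5 fell, 0 rose and 5 were not called in astroglia (median log2FC -1.04), against 16.3% lower over all genes tested. Over the whole preparation 4 of them rose and 1 fell. *Dnajb1*, a co-chaperone of Hsp70, fell from 31.5 ± 3.35 to 8.74 ± 1.84 CPM and *Hspd1*, the mitochondrial chaperonin, from 418 ± 73.4 to 133 ± 9.86 CPM. *Hspd1* was not called in non-telencephalic astroglia alone (-0.46). The 9 immediate early genes, which neurons and glia induce within minutes of a stimulus, all fell. *Fos* stood at 1432 to 2036 CPM at P3 and at 5.18 to 14.6 CPM at 3m, and *Fosb* at 27.9 to 63.1 CPM at P3 with 0 UMIs in each 3m library. Summed, the immediate early genes held 3666 to 4710 CPM in P3 astroglia and 309 to 372 CPM at 3m, and their part in the metallothionein levels was not tested.

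The genes beside the locus went in both directions. Among the nearest protein-coding genes on each side, 9 are given here, of which 7 were tested in astroglia. Their calls stand against 15.8% higher and 16.3% lower over all genes tested. *Gnao1*, a G protein subunit, rose by 1.65 on the log2 scale, as did *Herpud1* of the endoplasmic reticulum stress response by 1.41 and *Cpne2* by 1.15. *Cpne2* was under the threshold with library totals (0.97), without 3m replicate 1 (0.94) and without replicate 1 of both ages (0.92). In non-telencephalic astroglia alone the values of *Gnao1* and *Cpne2* were negative, at -0.42 and -0.84, and *Herpud1* (0.53) and *Nup93* (-1.06) were not called. *Nudt21*, a factor of 3′ end processing, fell by 1.51. *Nup93*, a nuclear pore protein, fell by 1.96. *Ogfod1* (0.86) and *Bbs2* (0.62) were not called, and *Slc12a3* and *Nlrc5*, with means under 1 CPM, were not tested. The metallothioneins lie between *Bbs2* and *Nup93*.

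**Figure D5:**
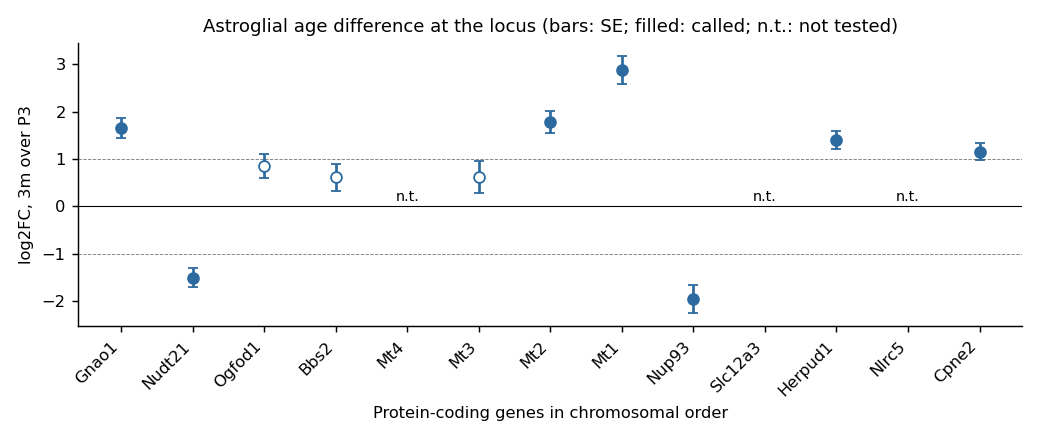
The log2FC (3m over P3) in astroglia of *Mt1* to *Mt4* and of 9 protein-coding genes near them, in chromosomal order. Bars are SE, filled points were called, and n.t. marks genes that were not tested. *Bbs2* and *Nup93*, on each side of the metallothioneins, do not share the values of *Mt1* or *Mt2*. Further out, *Gnao1* (1.65), *Herpud1* (1.41) and *Cpne2* (1.15) were called higher, as was *Mt2* (1.78), and *Nudt21* (-1.51) was called lower.

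Across 39 sums of a library and a cell class with at least 10 cells, the genes most like each member were ranked by Pearson r of log2(CPM + 1) over 6652 genes with a mean of at least 20 CPM. The sums share libraries and classes, and r is given as a description. The gene most like *Mt1* was *Mt2* (r = 0.91), and after it came *Clu*, which encodes the chaperone clusterin (0.86), *Aldoc*, a glycolytic enzyme of astrocytes (0.77), *Gpld1* (0.76) and *Hist1h2bc* (0.76). For *Mt2* the list after *Mt1* read *Clu* (0.87), *Nwd1* (0.85), *Mt3* (0.84) and *Ntrk2*, a neurotrophin receptor (0.82). For *Mt3* it was *Mlc1*, a membrane protein of astrocyte endfeet (0.94), *Ntrk2* (0.93), *Nkain4* (0.89), *Slc25a18*, a mitochondrial glutamate carrier (0.89), and *Cpe* (0.89). The r between *Mt1* and *Mt3* was 0.69. *Clu* rose in astroglia from 870 ± 414 to 8416 ± 1186 CPM, and *Mlc1* stood at 338 ± 58.3 and 378 ± 66.6 CPM.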

How the data were processed

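Droplet-based single-cell RNA-Seq (10x 3′ v3.1) of 6 libraries was used, 3 per age. The authors mapped reads to mm10 with Cell Ranger and deposited raw UMI counts of all barcodes, merged without normalization. The submitters' processing notes also name Seurat 3.1.1. Cluster and sub-cluster names were deposited by the authors for barcodes that held more than 500 genes and less than 10% mitochondrial UMIs, beside the pseudotime score of Slingshot, which has no unit, in 20 bins. Cell types were taken from this annotation, and doublets were not called. Barcodes that failed the filter entered the whole-preparation sums and were otherwise given as a level of their own.

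From the counts, UMIs were summed per library, since cells are not replicates, and tested with edgeR 4.0.16 (R 4.3.3), using quasi-likelihood, TMM, filterByExpr and Benjamini-Hochberg adjustment over all genes tested, two-sided, with a call at padj of at most 0.05 and an absolute log2FC of at least 1. Shares were compared between the ages by exact two-sided permutation tests over libraries. The fits were tested on simulated counts with known changes. Of the lists, the text names the members called with the largest log2FC, at most 2 in each direction, at 20 CPM or more in the higher age, and further list members chosen after their values were seen (*Mtf1*, *Slc30a1*, *Slc39a8*, *Slc31a2*, *Atp7a*, *Cp*, *Nr3c1*, *Hif3a*, *Zbtb16*, *Per1*, *Tsc22d3*, *Fkbp5*, *Sgk1* and *Srxn1*). Cluster leading genes are the 10 with the largest fold against all other cells, at 50 CPM or more. Of the 5 protein-coding genes on each side of the locus, 1 is not reported here. Gene positions are from GENCODE M21 and promoter windows from RefSeq, in which all 4 metallothionein genes were found. The members and lists were chosen with earlier results of these data known. Alternatives covered scaling, DESeq2 1.42.0, filters, cells and libraries.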

Additional observations from a re-analysis of the deposited data

Results flagged for a closer look

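Differences of the age effect between cell groups were set apart for a closer look, each by a test of the difference itself. Between astroglia and microglia the log2 difference was 3.81 for *Mt1*, 2.81 for *Mt2* and 1.90 for *Mt3* (padj = 1.44e-14, 4.01e-06 and 0.00260, edgeR interaction). The microglial sums held 17 to 46 cells per library. In P3 microglia *Mt3* was in the range of the astrocyte markers, and the part of free astroglial RNA in its contrast was not tested. Between telencephalic and other astroglia the differences were 1.36, 1.47 and 0.75 (padj = 9.61e-05, 2.44e-06 and 0.0280, edgeR interaction), a comparison added after the values of the sub-clusters were seen. Its groups were drawn from the expression of the same cells, so these padj describe the sums and do not establish a difference between regions. The other astroglia held 17, 261 and 50 cells in the 3m libraries. Groups of 3 libraries were not searched for outlying samples.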

How the results depend on the processing

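The alternatives limited to non-telencephalic astroglia or leaving out replicate 1 of both ages, cluster 3 or sub-cluster 15 were chosen after seeing the data. Over 20 alternatives of the astroglial fit, *Mt1* remained called, with a log2FC of 1.86 to 3.12, and *Mt3* remained uncalled, with 0.00 to 0.81. *Mt2* ranged from 0.73 to 2.10 and lost its call in non-telencephalic astroglia alone (0.73). The genes called there numbered 2603, and 2719 with all libraries thinned to the smallest total, against 4344. With a library left out they numbered 3234 to 4257, and the log2FC were 2.73 to 3.12 for *Mt1*, 1.60 to 1.94 for *Mt2* and 0.40 to 0.81 for *Mt3*. Over the whole preparation, leaving out a library gave 0.54 to 1.00 for *Mt2*, which was called without P3 replicate 2 (1.00). In microglia, *Mt3* was called with no filter on low counts (-1.18), where 513 genes were called against 271, and leaving out a library gave 125 to 255 calls, with 125 without 3m replicate 1 and 159 without 3m replicate 2, and -1.62 to -0.54 for *Mt3*. *Mt2* could not be tested in microglia without any of the P3 libraries. In the contrast of astroglia with microglia, leaving out a library gave 430 to 651 calls, 430 of them without 3m replicate 2, and 1.32 to 2.49 for *Mt3*. In the contrast of regions, padj of *Mt3* reached 0.190 (edgeR) with a library left out. The share of *Mt3* differed by -36.8 to -26.6 points in 12 alternatives and by -35.8 to -32.0 with a library left out.

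In non-telencephalic sub-clusters the direction turned for *Gnao1* (-0.42), *Cpne2* (-0.84) and *Mtf1* (0.36). The causes were not tested. The labels do not say whether replicate numbers pair the libraries, and the correlations do not settle it. Deviations of same-numbered libraries correlated with r of 0.21, 0.10 and 0.04 over 13530 genes. P3 replicates 1 and 2 correlated best with the 3m library of the same number, and P3 replicate 3 with 3m replicate 2 (r = 0.14). With a replicate block, 4420 genes were called in astroglia, and *Mt1*, *Mt2* and *Mt3* had log2FC of 2.90, 1.82 and 0.66. The blocked padj of *Mt3* was 0.0063 (edgeR), under the fold threshold, so the block changed no call of the members. The shallower 3m libraries limit what was measured of low genes, and the 17 to 46 microglial cells per library limit that contrast.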
